A study of Mus musculus with 24 samples.

Results

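Toll-like receptors are pattern recognition receptors that myeloid cells use to detect microbial molecules and nucleic acids of dying cells. The 10 genes described here were the Toll-like receptor genes Tlr1, Tlr2, Tlr3, Tlr4, Tlr6, Tlr7, Tlr8, Tlr9 and Tlr13 and the adaptor gene Myd88, chosen by name from 54446 gene identifiers and matched by their Ensembl identifiers. They were followed in CD11b+ myeloid cells sorted from MC38 tumors (a transplanted mouse colon carcinoma grown under the skin), in an m6A-seq experiment. In m6A-seq an antibody to N6-methyladenosine pulls down modified mRNA fragments (the IP library), and the unselected mRNA of the same preparation is sequenced beside it (the Input library). All mice carried the Ythdf2 fl/fl alleles on the C57BL/6J background. Those called WT had no Cre, and those called cKO carried Lyz Cre as well, a Cre expressed from the Lyz2 locus of monocytes, macrophages and neutrophils, so that cells that do not use this locus keep the gene. Tumors received a single dose of 20 Gy, with the cells taken 3 days later (IR), or no irradiation (Ctrl). Each of the 4 conditions had 3 Input and 3 IP libraries, 24 in all, each from the pooled tumors of several mice. The replicates are called technical in one place of the study's methods and biological in another, so the tests below measure the spread between these libraries.

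Each receptor pairs an ectodomain of leucine-rich repeats with a cytoplasmic TIR domain. Tlr1, Tlr2, Tlr4 and Tlr6 sit at the cell surface, where Tlr2 paired with Tlr1 or Tlr6 binds bacterial lipopeptides and Tlr4 with its partner protein MD-2 binds lipopolysaccharide. Tlr3, Tlr7, Tlr8, Tlr9 and Tlr13 sit in endosomes and bind nucleic acids, and they reach that compartment with the chaperone Unc93b1. All except Tlr3 signal through Myd88, which assembles the IRAK kinases and leads to NF-kB, and in endosomes also to Irf7 and type I interferon. YTHDF2, the protein removed in the cKO, is a reader of m6A that promotes decay of the mRNAs it binds.

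The Input libraries held 65180075 to 83661576 counts assigned to genes and the IP libraries 68846321 to 86421888, and every replicate pair differed by more than sampling noise. Lyz2, whose locus carries the Cre in the cKO, checked the labels. Its mean over the Inputs, in counts scaled per 1e6 (CPM), was 20582 for WT Ctrl, 20740 for WT IR, 299.7 for cKO Ctrl and 409 for cKO IR. In the IP libraries it was 16113 CPM for WT Ctrl and 88.6 for cKO Ctrl, but 89.6 in the 3 libraries labelled WT IR and 19697 in the 3 labelled cKO IR, so the 6 irradiated IP libraries carried the other genotype's level. Values of these 6 are given by label as a description only, and tests used their average over both labels, which is the same whichever way they are assigned. The Ythdf2 transcript itself was higher in the cKO Inputs (178 CPM in Ctrl) than in WT (96.8 CPM), and since a count over the whole gene does not single out the floxed part, it does not check the deletion. The gate marker Itgam (CD11b) stood at 328 CPM or more in every Input. Of 17 markers of B, T and NK, plasmacytoid dendritic and epithelial or tumor cells, none passed 7.41 CPM in any Input, and Cd3e, Cd3g, Ncr1 and Krt8 were at 0 in 11 of the 12 Inputs.

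On the mm10 build, Tlr1 (chr5:64924679-64933563) and Tlr6 (chr5:64952031-64960097) lie next to each other on the minus strand, as do Tlr8 (chrX:167242696-167264329) and Tlr7 (chrX:167304929-167330558). Tlr13 is at chrX:106143204-106160493 and Tlr4 at chr4:66827584-66930284, both on the plus strand. Tlr2 is at chr3:83836272-83841767, Tlr3 at chr8:45395665-45411080 and Myd88 at chr9:119335934-119341411, all on the minus strand, and Tlr9 at chr9:106222598-106226883 on the plus strand.

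All 10 genes passed the filter of at least 10 counts in 3 or more libraries. To compare genes with each other, levels were divided by exon length and written as RPKM (CPM per kilobase of exon). In WT Ctrl, Tlr2 was at 83.9 ± 0.74 RPKM (SD, n = 3), above every other member. Myd88 (47.6 ± 1.5) and Tlr13 (46.5 ± 0.61) came next, and their libraries overlapped. Tlr8 stood at 23.5 ± 1.1, Tlr7 at 15.9 ± 0.26, Tlr1 at 13.3 ± 0.53, Tlr4 at 9.26 ± 0.49, Tlr9 at 8.25 ± 0.54 and Tlr6 at 6.2 ± 0.68 RPKM, with no overlap between neighbours in that order. Tlr3, the receptor for double-stranded RNA, was at 0.739 ± 0.093 RPKM, with 249 to 328 counts per library. In WT IR Tlr13 (47.1 ± 2.2) stood above Myd88 (37.1 ± 2.1), with no overlap. In cKO Ctrl Tlr2 reached 101 ± 1.1 RPKM, and the levels of Tlr4 (9.95 ± 0.32) and Tlr9 (9.39 ± 0.41) overlapped. The order in cKO IR differed in one place from that of cKO Ctrl: Tlr9 lay below Tlr6, at 6.01 ± 0.24 against 6.5 ± 0.30 RPKM. The receptors Tlr5, Tlr11 and Tlr12 summed to at most 5.88 CPM in any Input.

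In the m6A-IP the surface receptors stood at both ends of the range: Tlr4 and Tlr2 were enriched over Input and Tlr1 was depleted. Fold changes below are log2 differences with their standard error (SE) from edgeR's quasi-likelihood test. The p-values were adjusted by Benjamini and Hochberg over all genes tested in a fit. These were 17373 genes for IP over Input and 16090 genes for the comparisons of Inputs further below. A gene is called where the adjusted p is under 0.05. A positive value of IP over Input means that a transcript took a larger share of the IP library than of the Input, relative to the other transcripts. In WT Ctrl 9 of the 10 genes were called, 3 higher and 6 lower, where 75.5% of all genes were called (38.1% higher and 37.5% lower).

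Tlr4 was the most enriched member. Its Input levels in WT Ctrl were 50.8, 49.1 and 54.4 CPM and its IP levels 320.0, 321 and 332 CPM. The groups lay far apart, with IP over Input at 2.55 ± 0.048 (5.84-fold, adjusted p = 1.46e-30) in WT Ctrl and 2.68 ± 0.048 in cKO Ctrl. Tlr2 had Input levels of 254, 250.4 and 255 CPM and IP levels of 857, 864 and 853 CPM, an enrichment of 1.65 ± 0.023 (3.14-fold, adjusted p = 4.52e-34) in WT Ctrl and 1.54 ± 0.023 in cKO Ctrl. Tlr1, which pairs with Tlr2 at the membrane, stood at the other end. It had 44.6, 42.4 and 46.0 CPM in the Inputs of WT Ctrl and 6.73, 5.44 and 6.39 CPM in the IP libraries. That is a log2 difference of -2.95 ± 0.074 (7.73-fold lower, adjusted p = 3.59e-27), and in cKO Ctrl it was -3.17 ± 0.072. Tlr6, the other partner of Tlr2 and a close relative of Tlr1, was at 23.2, 20.8 and 21.8 CPM in the IP and 21.8, 21.5 and 26.0 CPM in the Input libraries of WT Ctrl. Its value of -0.19 ± 0.068 (adjusted p = 0.0145) lost its call without the WT Ctrl Input replicate 3 (-0.10, adjusted p = 0.19) or IP replicate 2 (adjusted p = 0.062). The CPM of Input and of IP libraries were scaled in separate fits. The log2 differences are therefore not exact ratios of these levels, and overlap between IP and Input was not read from them.

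Of the endosomal receptors in WT Ctrl, Tlr13, a mouse sensor of bacterial ribosomal RNA, was higher in the IP (0.28 ± 0.030, adjusted p = 3.84e-10). Tlr9, the receptor for CpG DNA, was lower, with 11.8, 11.1 and 14.05 CPM in the IP against 30.0, 29.6 and 26.5 CPM in the Input (-1.33 ± 0.070, adjusted p = 5.19e-18). Tlr7, a receptor for single-stranded RNA, was also lower (-0.78 ± 0.060), as was its relative Tlr8 (-0.38 ± 0.067). Tlr3 was not called (-0.22 ± 0.15, adjusted p = 0.165). Myd88 was lower (-0.28 ± 0.040, adjusted p = 1.93e-07). In cKO Ctrl 8 of the 10 were called, with 73.7% of all genes called (37.8% higher and 36% lower): Tlr2, Tlr4 and Tlr13 higher and Tlr1, Tlr7, Tlr8, Tlr9 and Myd88 lower. Tlr3 (0.09 ± 0.14) and Tlr6 (-0.08 ± 0.067) were not.

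**Figure D1:**
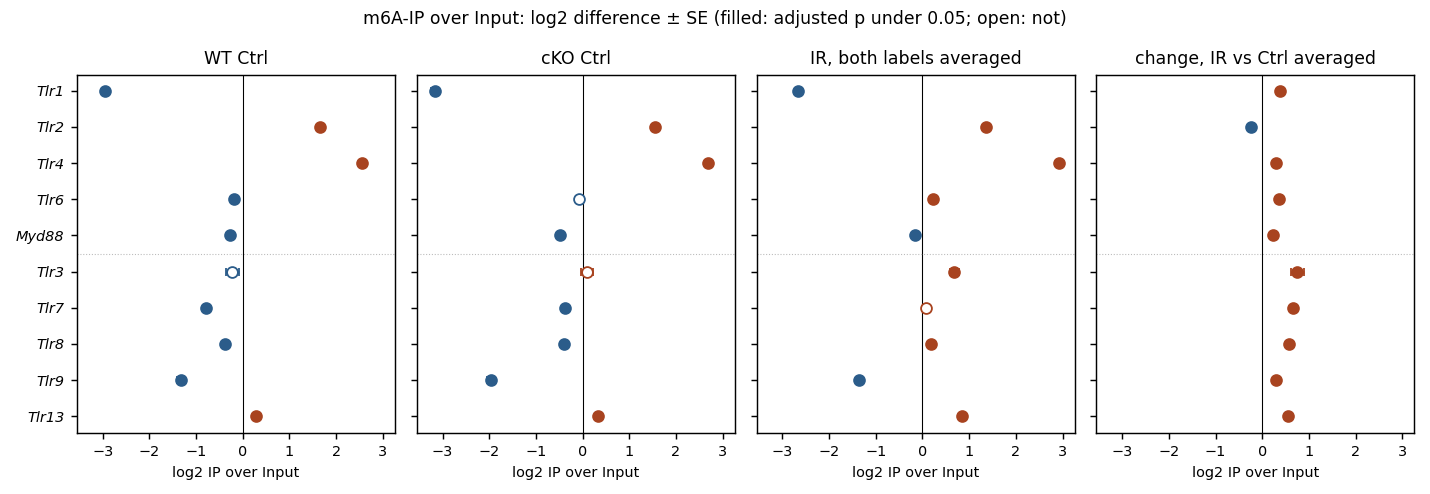
Log2 difference between m6A-IP and Input (horizontal axis) for the 10 genes, ± SE, in WT Ctrl, cKO Ctrl and the average of both irradiated labels, and the change of that difference with irradiation. Filled points had an adjusted p under 0.05, red points are above 0 and blue points below, and the dotted line parts surface receptors and Myd88 from endosomal receptors. Tlr4 lies at 2.55 to 2.91 and Tlr1 at -3.17 to -2.68 in the first 3 panels.

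The peaks that MACS2 called in each IP library show where along the transcripts the enrichment lay. A consensus peak here is a region covered by peaks of all 3 libraries of a group. In WT Ctrl 3 of the 10 genes had one (Tlr2, Tlr4 and Tlr13), where 27.2% of all tested genes did, and in cKO Ctrl the same 3 genes did (25.4% of all genes). By label, 6 did in WT IR (those 3 with Myd88, Tlr7 and Tlr8; 23% of all genes) and 4 in cKO IR (those 3 with Tlr8; 20.4%). Tlr1, Tlr3 and Tlr9 had no peak in any of the 12 IP libraries. With a fold enrichment of at least 4, Tlr4 alone kept a consensus peak in each group, where 9.72% of all genes did in WT Ctrl, 8.36% in cKO Ctrl, 7.08% under the WT IR label and 6.18% under the cKO IR label. Tlr6 had 4 peaks, all in its coding sequence and none shared by all 3 libraries of a group.

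The strongest peak of any member was at the start of the Tlr4 transcript. It covered chr4:66827713-66827896 in WT Ctrl (mm10), across the end of the 5′ UTR and the first coding exon, with a fold enrichment of 11.9, 13.3 and 15.5 in the 3 libraries. In cKO Ctrl it was 13.2, 13.2 and 12.4, and in the 6 irradiated libraries 7.88 to 16.1. A broad peak over the large coding exon had its summit at -136 bases from the end of the coding sequence in WT Ctrl, with a fold of 5.72, 5.80 and 5.71. Downstream in WT Ctrl, a peak at chr4:66841988-66843039 covered 813 bases of the 3′ UTR. Its summit lay past the 3′ end of the Tlr4 transcript with the longest coding sequence. Peaks at chr4:66843440-66843597 (4.55, 4.15 and 3.86) and chr4:66845726-66845876 (3.51, 3.54 and 2.15) lay further downstream and overlapped no exon. All of them lie inside the annotated span of the gene, and whether they belong to a longer transcript was not tested. Tlr2 had a 5′ UTR peak at chr3:83840979-83841215 with a fold of 2.74, 2.49 and 3.90 in WT Ctrl and 2.45, 2.04 and 2.20 in cKO Ctrl, and coding peaks near 2-fold. Tlr13 had a peak in its 3′ UTR at chrX:106159743-106159994, with its summit 340 bases past the coding sequence and folds of 2.06, 2.01 and 1.81. In its coding sequence 1 peak lay at the same place in 2 of the 3 libraries of WT Ctrl and in 2 of the 3 of cKO Ctrl, and so was no consensus peak in either. Under the irradiated labels there were 4 coding consensus peaks each, at 1.57-fold to 2.42-fold, and whether the number of peaks differed was not tested.

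The letters GGACT, in transcript direction, are the form of the m6A consensus that the methyltransferase prefers. They were searched on the transcript strand of 101-base windows around the summits of consensus peaks. In WT Ctrl they were in 2 of 7 windows of member peaks that overlap exons, the 5′ UTR windows of Tlr2 and Tlr4, and in 11.5% of the 13041 windows of all peaks. The 29-base sites below come from the GRCm38 genome on the transcript strand, with GGACT in capitals. They are 6 of the 14 matches within exon-overlapping WT Ctrl consensus peaks of Tlr4, Tlr2 and Tlr13, shown as examples from the 5′ UTR, coding and 3′ UTR peaks, and the 4 matches in Tlr2 coding peaks are among those not shown. The Tlr4 match at -13 and the Tlr2 match at 41 bases from the summit lie in the searched windows, and the other 4 lie elsewhere in the peaks. A match is a description of the letters and not a measured modification, and which peaks carry the enrichment of the whole gene was not tested.
Tlr4, 5′ UTR, chr4:66827747-66827775, plus strand, with its A at -13 bases from the summit: caggtgtcccagGGACTctgcgctgccac
Tlr4, coding sequence of the first exon, chr4:66827845-66827873, plus strand, at 85 bases from the summit: ggctcctggctaGGACTctgatcatggca
Tlr4, coding sequence of the large exon, chr4:66841008-66841036, plus strand, at -318 bases from the summit: gagtcagaatgaGGACTgggtgagaaatg
Tlr2, 5′ UTR, chr3:83841003-83841031, minus strand, at 41 bases from the summit: tcaaggaggtgcGGACTgtttccttctga
Tlr13, 3′ UTR, chrX:106159845-106159873, plus strand, at -112 bases from the summit: ttattaaggagaGGACTtagaacaacagt
Tlr13, 3′ UTR, chrX:106159761-106159789, plus strand, at -196 bases from the summit: gaagagtagggaGGACTgcttggaaaact

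**Figure D2:**
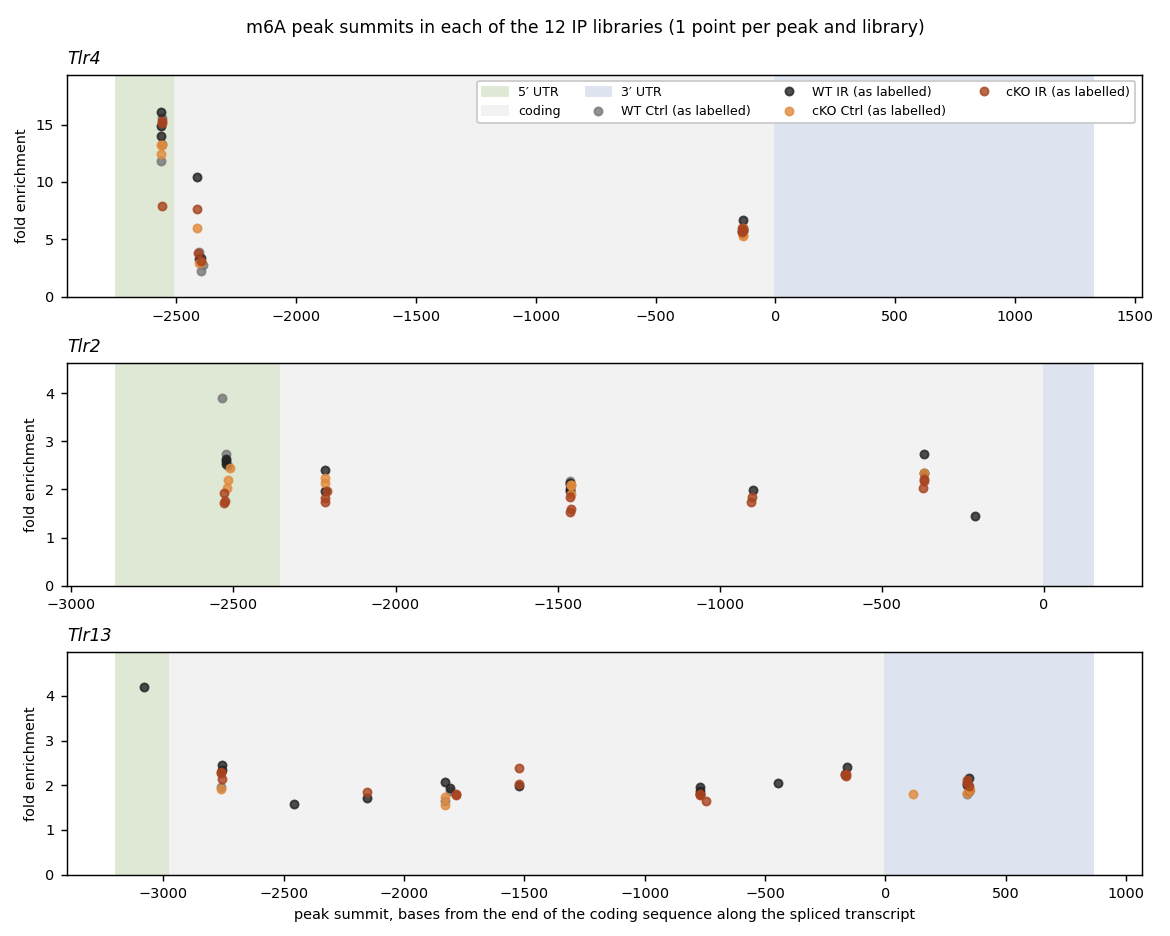
Fold enrichment of m6A peaks (vertical axis) against the position of their summits along the spliced transcripts of Tlr4, Tlr2 and Tlr13, in bases from the end of the coding sequence (horizontal axis). Each point is 1 peak in 1 of the 12 IP libraries, colored by its labelled group, with the 5′ UTR, coding sequence and 3′ UTR shaded. Peaks with summits outside the exons of the transcript drawn, such as those of Tlr4 past its 3′ end, are left out. The 5′ UTR summits of Tlr4 reach 16.1-fold, and no Tlr2 summit passes 3.90-fold.

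The single Myd88 consensus peak, at chr9:119339750-119339955 under the WT IR label, had folds of 1.73, 1.80 and 1.56. It overlaps an exon of Acaa1a, which runs on the other strand at chr9:119339676-119339898. Peaks were called per strand, but the strand setting of the gene counting is not given in the sources used here, so the counts of Myd88 may hold reads of Acaa1a. Tlr3 overlaps exons of the antisense gene Gm45542 in the same way. Tlr1 and Tlr6, and Tlr7 and Tlr8, are neighbouring paralogs, and reads that fit both of a pair could be lost from or split between them.

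Between the genotypes without irradiation, IP over Input differed for 4 of the 10 genes, where 22.6% of all genes differed (10.1% higher and 12.5% lower). Tlr7 was less depleted in the cKO (change of 0.41 ± 0.083, adjusted p = 0.00036): its IP levels were 40.8, 41.0 and 40.6 CPM in WT Ctrl and 74.3, 64.0 and 69.2 CPM in cKO Ctrl. Tlr9 was more depleted (-0.64 ± 0.10, adjusted p = 6.5e-06), with IP levels of 9.25, 8.59 and 9.27 CPM in cKO Ctrl. These groups did not overlap for either gene. Myd88 (-0.21 ± 0.056, adjusted p = 0.00466) and Tlr2 (-0.11 ± 0.032, adjusted p = 0.0101) were lower in the cKO. The call of Tlr2 was lost in a fit without the 6 irradiated IP libraries (-0.09, adjusted p = 0.0742), and Tlr1 was called without the WT Ctrl IP replicate 2 (-0.31, adjusted p = 0.03). In the same contrast all 7 interferon-induced markers were lower, 4 of 5 neutrophil markers were higher, and 3 of 5 macrophage markers were lower and 1 higher; their part in the receptor values was not tested.

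After irradiation, averaged over both genotypes, IP over Input was called for 9 of the 10 genes, with 80.3% of all genes called (40.1% higher and 40.2% lower). The remaining gene was Tlr7 (0.08 ± 0.041, adjusted p = 0.0804), which was called without the WT IR Input replicate 2 (0.13, adjusted p = 0.000876) or the cKO IR Input replicate 1 (0.09, adjusted p = 0.0456). The change from Ctrl to IR was called for all 10 genes. It was higher for 9 and lower for 1, where 48.4% of all genes were called (25.3% higher and 23.1% lower), and each of these calls held with any single library left out. The median change of the 10 was 0.37 against -0.01 over all genes. The endosomal receptors had the 4 largest changes. Tlr3 changed by 0.75 ± 0.14, Tlr7 by 0.66 ± 0.059, Tlr8 by 0.58 ± 0.066 and Tlr13 by 0.55 ± 0.030. Tlr13 had IP levels of 267, 259 and 261 CPM in WT Ctrl and 291, 289 and 289 CPM in cKO Ctrl. Its 6 irradiated IP libraries all lay above, at 369 to 391 CPM, whatever their label. Tlr1 (0.38 ± 0.071), Tlr6 (0.36 ± 0.068), Tlr4 (0.30 ± 0.046), Tlr9 (0.29 ± 0.071) and Myd88 (0.22 ± 0.040) changed less. Tlr2 was the exception (-0.25 ± 0.022, adjusted p = 3.38e-11), with 964, 969 and 960.3 CPM in cKO Ctrl and 738 to 772 CPM in the 6 irradiated IP libraries, all below both Ctrl groups. Of the marker lists, 5 of 5 neutrophil, 3 of 4 monocyte and 6 of 7 interferon-induced genes were higher in this contrast, and 2 of 5 macrophage genes were higher and 2 lower. Their part in the receptor values was not tested.

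By label, the irradiated IP levels of Tlr2, Tlr3, Tlr4, Tlr7 and Tlr9 did not overlap. The share of all genes that do not overlap was not counted, so these values are a description. Tlr7 had 90.6, 90.7 and 98.8 CPM under the WT IR label and 63.8, 65.3 and 61.5 CPM under the cKO IR label. Tlr3 had 8.91, 8.34 and 10.0004 CPM against 6.11, 7.37 and 6.42 CPM. Both genes were higher under the WT IR label. Tlr9 had 9.25, 8.95 and 8.45 CPM under WT IR and 11.5, 11.4 and 10.6 CPM under cKO IR, and Tlr4 had 350.1, 339.5 and 371 CPM against 444, 462 and 441 CPM. Tlr2 had 743, 740 and 738 CPM against 763, 772 and 769 CPM. These were higher under the cKO IR label, and since Lyz2 went against these labels, no genotype difference was drawn from them.

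**Figure D3:**
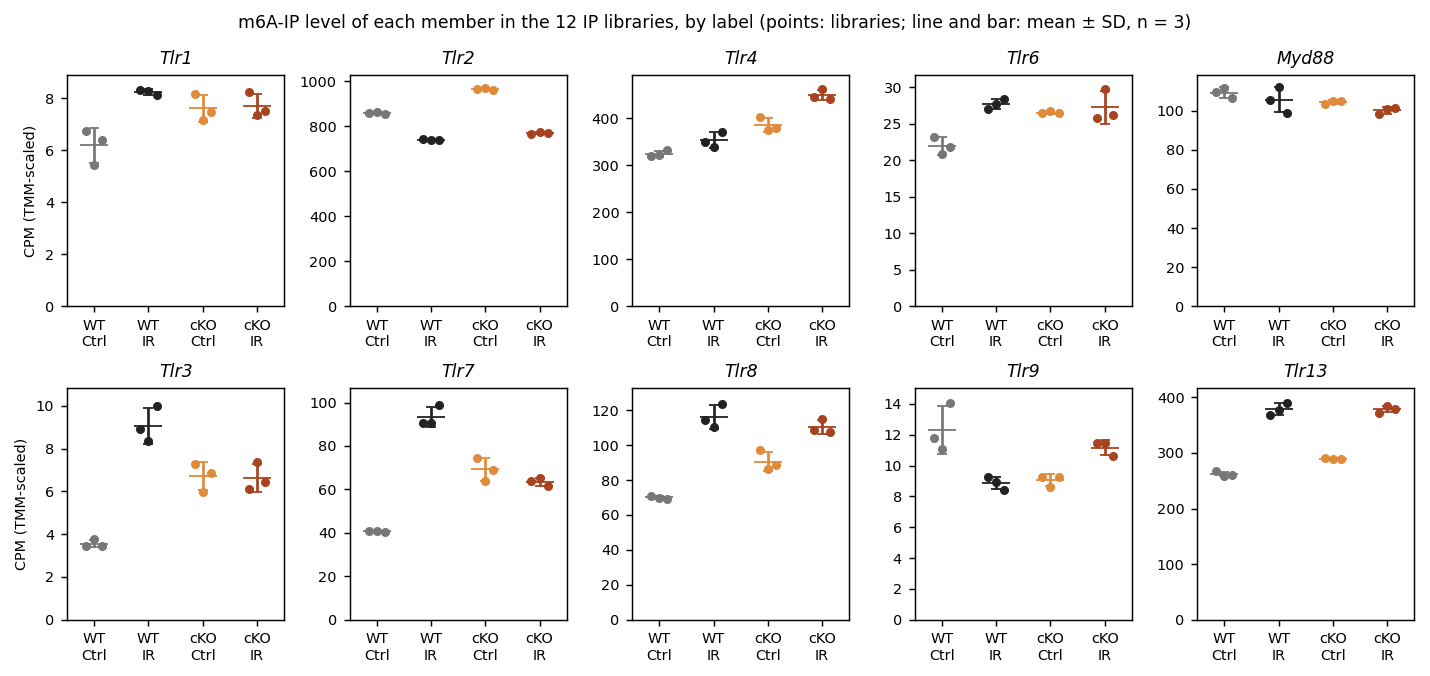
Levels of the 10 genes in the 12 m6A-IP libraries, in CPM from 0, by labelled group, with points for libraries and lines for the mean ± SD (n = 3). The upper row holds the surface receptors and Myd88 and the lower row the endosomal receptors; Tlr13 lies at 369 to 391 CPM in the irradiated libraries and at 259 to 291 CPM in the others, and the IR labels are those that Lyz2 goes against.

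Turning to the Inputs, the transcript levels themselves, irradiation of WT tumors changed 2 of the 10 genes and both were lower, where 31.7% of 16090 genes were called (14.7% higher and 17% lower). Myd88 went from 121, 127 and 120.2 CPM in WT Ctrl to 99.9, 89.5 and 97.1 CPM in WT IR. The groups were well separated, with a difference of -0.36 ± 0.042 (1.28-fold, adjusted p = 9.3e-07) that was called in every alternative fit. Tlr6 went from 21.8, 21.5 and 26.0 CPM to 18.1, 20.4 and 20.4 CPM (-0.24 ± 0.074, adjusted p = 0.0189). Its groups did not overlap, but the call was lost without WT Ctrl replicate 3 (-0.14, adjusted p = 0.151) or WT IR replicate 1 (-0.18, adjusted p = 0.0505). Tlr2 (0.02 ± 0.029) and Tlr13 (0.02 ± 0.035) were not called. In the same comparison the summed neutrophil markers were at 1549 to 1636 CPM in WT Ctrl and 327 to 366 CPM in WT IR (5 of 5 lower), the monocyte markers at 748 to 801 and 241 to 299 CPM (4 of 4 lower) and the macrophage markers at 1486 to 1507 and 1316 to 1336 CPM (4 of 5 lower). Of the 7 interferon-induced genes 6 were lower and 1 higher, while their sum was 124 to 129 CPM in WT Ctrl and 153 to 162 CPM in WT IR. The 5 markers of conventional dendritic cells summed to 44.8 to 46.6 CPM in WT Ctrl and 70.2 to 72.4 CPM in WT IR. Of these, 3 were tested, with 2 higher and 0 lower. The sum was nearly all Zbtb46 (31.2 to 55 CPM over all Inputs) and Flt3 (9.28 to 17 CPM). Clec9a reached at most 0.782 CPM in any Input, Cd209a 0.153 CPM and Xcr1 0.105 CPM. In bulk samples fewer cells of a type and less RNA per cell cannot be told apart, and the part of these markers in the levels of Myd88 and Tlr6 was not tested.

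The WT IR Inputs stood further apart than those of the other groups over all genes: the mean chi-square per gene between pairs of replicates was 9.72 to 37.6 in WT IR, highest between replicates 1 and 2, and 3.53 to 8.34 in the other Input groups. The comparisons with WT IR and the interaction rest on these libraries. Tlr8 was at 78.1, 109 and 97.7 CPM there against 81.8, 82.3 and 88.6 CPM in WT Ctrl. Tlr7 was at 58.1, 74.3 and 64.5 CPM against 66.2, 64.3 and 64.4 CPM, and Tlr3 at 3.32, 5.96 and 3.85 CPM against 3.93, 4.28 and 3.33 CPM. WT IR replicate 1 was the lowest and replicate 2 the highest for all 3 genes, and their groups overlapped. Tlr8 was called without WT IR replicate 1 (0.29, adjusted p = 4.38e-06), Tlr4 without WT IR replicate 2 (-0.14, adjusted p = 0.0463) and Tlr1 without WT IR replicate 2 (-0.24, adjusted p = 0.00152) or WT Ctrl replicate 2 (-0.19, adjusted p = 0.05).

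Without irradiation, most receptor transcripts were higher in the cKO. In cKO Ctrl against WT Ctrl, 7 of the 10 genes were higher and none was lower, where 15.7% of all genes were called (8.05% higher and 7.61% lower). The median difference of the 10 was 0.23, against 0.00 over all genes. Tlr1 was at 44.6, 42.4 and 46.0 CPM in WT Ctrl and 63.9, 64.4 and 60.7 CPM in cKO Ctrl, with no overlap (0.51 ± 0.060, 1.42-fold, adjusted p = 4e-06). Tlr2 was at 254, 250.4 and 255 CPM against 305, 308 and 301 CPM, again with no overlap (0.27 ± 0.029, adjusted p = 1.19e-06). Both members of this lipopeptide receptor pair were thus higher, while Tlr6 (0.16 ± 0.072, adjusted p = 0.149) and Tlr4 (0.10 ± 0.057, adjusted p = 0.26) were not called. Without WT Ctrl replicate 3 Tlr6 was called (0.26, adjusted p = 0.0207).

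Of the endosomal receptors, Tlr8 was at 111, 115 and 105 CPM in cKO Ctrl, above all WT Ctrl libraries (0.39 ± 0.075, adjusted p = 0.000986). Tlr7 was at 80.7, 86.5 and 80.5 CPM, also above them (0.35 ± 0.063, adjusted p = 0.000564). Tlr3 was at 5.31, 6.17 and 5.92 CPM (0.59 ± 0.16, adjusted p = 0.0133) and Tlr9 at 32.8, 31.2 and 34.05 CPM (0.19 ± 0.058, adjusted p = 0.0308). Myd88, at 135, 133 and 138 CPM, was higher by 0.14 ± 0.041 (adjusted p = 0.0235). Tlr13, at 214, 218 and 209 CPM against 199.5, 198 and 203 CPM, did not overlap between groups but was not called (0.09 ± 0.035, adjusted p = 0.0785) except in a fit of only the 6 libraries compared (adjusted p = 0.00417). The call of Tlr3 was lost without WT Ctrl replicate 3 or cKO Ctrl replicate 2 (adjusted p = 0.0608 to 0.0807), that of Tlr9 without WT Ctrl replicate 3 or cKO Ctrl replicate 1 or 3 (0.087 to 0.179), and that of Myd88 without WT Ctrl or cKO Ctrl replicate 1 or 3 (0.0642 to 0.104).

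Markers of cell types and of interferon moved in the same comparison. The summed level of 5 macrophage markers was 1486 to 1507 CPM in WT Ctrl and 1919 to 1953 CPM in cKO Ctrl, with all 5 higher. That of 5 neutrophil markers was 1549 to 1636 CPM and 663 to 679 CPM, with 4 lower and 1 higher, and that of 4 monocyte markers 748 to 801 CPM and 619.7 to 656 CPM, with 2 lower and 2 higher. All 7 interferon-induced genes were higher, from 124 to 129 CPM up to 254 to 257 CPM. The part of these markers in the receptor levels was not tested.

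After irradiation of cKO tumors most of the receptors were lower. In cKO IR against cKO Ctrl, 7 of the 10 genes were lower and none was higher, where 45.6% of all genes were called (21.8% higher and 23.8% lower). This comparison shares the cKO Ctrl libraries with the previous one. Tlr9 had the largest difference: it was at 32.8, 31.2 and 34.05 CPM in cKO Ctrl and at 21.3, 19.9 and 21.5 CPM in cKO IR. The groups were far apart (-0.64 ± 0.059, 1.56-fold, adjusted p = 1.9e-08), and cKO IR was below the WT libraries as well. Tlr8 was at 93.1, 88.3 and 88.5 CPM in cKO IR (-0.30 ± 0.075, adjusted p = 0.0029), Tlr7 at 74.0, 69.6 and 66.6 CPM (-0.24 ± 0.063, adjusted p = 0.00409) and Tlr13 at 192, 188 and 188 CPM (-0.17 ± 0.035, adjusted p = 0.000372). Each lay below all cKO Ctrl libraries. Tlr3, at 5.04, 4.55 and 4.31 CPM, was not called (-0.32 ± 0.16, adjusted p = 0.102), though it was without a count filter (adjusted p = 0.0302) and in a fit of only the 6 libraries compared (adjusted p = 0.0109).

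Of the surface receptors in cKO IR, Tlr1 was at 58.0, 56.2 and 55.1 CPM (-0.16 ± 0.060, adjusted p = 0.0356) and Tlr4 at 49.9, 46.7 and 52.1 CPM against 53.6, 55.2 and 57.1 CPM in cKO Ctrl (-0.16 ± 0.058, adjusted p = 0.0303). The call of Tlr1 was lost without cKO Ctrl replicate 1 or 2 or cKO IR replicate 2 or 3 (adjusted p = 0.0893 to 0.113), and that of Tlr4 without cKO Ctrl replicate 2 or 3 or cKO IR replicate 1 or 2 (0.0621 to 0.159). Tlr2 (-0.04 ± 0.029) and Tlr6 (-0.09 ± 0.073) were not called. Myd88 was at 116, 123 and 119.7 CPM (-0.18 ± 0.041, adjusted p = 0.00136). The macrophage markers went to 1682 to 1702 CPM (5 of 5 lower), the monocyte markers to 367 to 377 CPM (4 of 4 lower) and the neutrophil markers to 293 to 309 CPM (5 of 5 lower). In WT IR these sums were 1316 to 1336, 241 to 299 and 327 to 366 CPM. The 7 interferon-induced genes summed to 254 to 257 CPM in cKO Ctrl and 285 to 292 CPM in cKO IR. In WT the sum was also higher after irradiation, though most of the 7 genes were lower there. Mx1 had the highest level of the 7 (77.7 to 148 CPM over all Inputs), so the sum does not speak for each gene. Irf7, for example, was lower in cKO IR than in cKO Ctrl (-0.16 ± 0.054, adjusted p = 0.0227). The part of all these markers in the receptor levels was not tested.

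The effect of irradiation differed between the genotypes for most of the endosomal receptors. The interaction of genotype and irradiation, which is the log2 effect of irradiation in cKO minus that in WT, was called for 5 of the 10 genes, where 30.2% of all genes were called (15% higher and 15.2% lower). Tlr7, Tlr8, Tlr9 and Tlr13 were lower and Myd88 was higher, and no surface receptor was called. Tlr9 had -0.56 ± 0.083 (adjusted p = 3.34e-05), from effects of -0.09 in WT and -0.64 in cKO. Tlr8 had -0.47 ± 0.11 (adjusted p = 0.00214), Tlr13 -0.19 ± 0.050 (adjusted p = 0.00544) and Tlr7 -0.25 ± 0.090 (adjusted p = 0.0394). Tlr3 had a value of like size with a wide error (-0.51 ± 0.23, adjusted p = 0.0993). Myd88 had 0.18 ± 0.059 (adjusted p = 0.0219), from -0.36 in WT and -0.18 in cKO.

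The interaction of Tlr8, Tlr9 and Tlr13 was called in each alternative fit. That of Tlr7 was lost without any single Input other than WT IR replicate 1, cKO Ctrl replicate 3 and cKO IR replicate 1 (-0.27 to -0.15, adjusted p = 0.052 to 0.109). That of Myd88 was lost without WT Ctrl, cKO Ctrl or cKO IR replicate 2 (0.16 to 0.17, adjusted p = 0.0595 to 0.0709), and Tlr3 was called without WT IR replicate 1 (-0.67, adjusted p = 0.00704). The median interaction was -0.47 over the 5 endosomal receptors and -0.03 over the 4 surface receptors. The difference between these groups was not tested. In the interaction 4 of 5 neutrophil and 3 of 4 monocyte markers were higher, 1 of 5 macrophage markers was lower, and 6 of 7 interferon-induced genes were higher and 1 lower. Their part in the receptor values was not tested.

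Among irradiated tumors, cKO IR against WT IR, 4 of the 10 genes were higher and 2 lower, where 47.7% of all genes were called (23.9% higher and 23.8% lower). The higher genes were the 3 receptors of the lipopeptide complexes and the adaptor: Tlr1 (0.51 ± 0.061, adjusted p = 8.07e-07), Tlr2 (0.21 ± 0.029, adjusted p = 5.42e-06), Tlr6 (0.31 ± 0.074, adjusted p = 0.00187) and Myd88 (0.33 ± 0.042, adjusted p = 1.89e-06). The values behind them were 35.0, 44.0 and 40.0 CPM in WT IR for Tlr1 and 254, 261 and 253 CPM for Tlr2, against 292, 296 and 298 CPM for Tlr2 in cKO IR. For Tlr6 they were 18.1, 20.4 and 20.4 CPM against 25.3, 24.3 and 23.1 CPM. None of these 4 genes overlapped between the groups.

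The lower genes were endosomal. Tlr9 was at 27.8, 25.9 and 27.2 CPM in WT IR and 21.3, 19.9 and 21.5 CPM in cKO IR, with no overlap (-0.37 ± 0.059, adjusted p = 3.12e-05). Tlr13 was at 192, 211 and 205 CPM against 192, 188 and 188 CPM (-0.10 ± 0.035, adjusted p = 0.0265). Its nearest libraries differed by under 1 CPM, and its call was lost without WT IR or cKO IR replicate 2 or 3 (adjusted p = 0.071 to 0.0994). Tlr4 (0.02 ± 0.058), Tlr3 (0.08 ± 0.16), Tlr7 (0.09 ± 0.064) and Tlr8 (-0.08 ± 0.076) were not called. For all but Tlr4 the outcome turned on 1 WT IR library: without replicate 2 Tlr3 (0.37, adjusted p = 0.0276) and Tlr7 (0.19, adjusted p = 0.00321) were higher, and without replicate 1 Tlr8 was lower (-0.20, adjusted p = 0.000468). Of the macrophage markers 4 were higher and 1 lower in this comparison, and all 7 interferon-induced genes were higher (285 to 292 CPM in cKO IR and 153 to 162 CPM in WT IR). The 4 monocyte markers were all higher, 4 of 5 neutrophil markers were lower, and 2 of the 3 conventional dendritic cell markers tested were lower. Their part in the receptor levels was not tested.

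**Figure D4:**
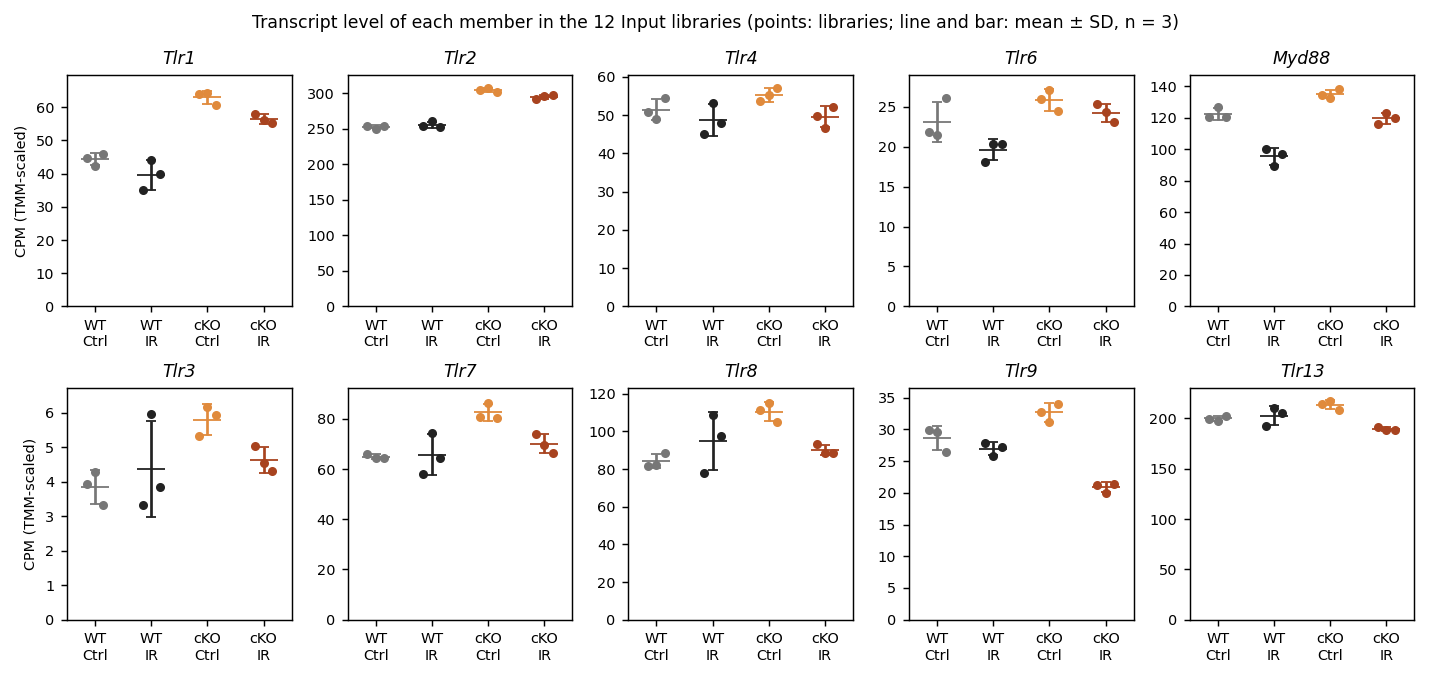
Levels of the 10 genes in the 12 Input libraries, in CPM from 0, with points for libraries and lines for the mean ± SD (n = 3). The upper row holds the surface receptors and Myd88 and the lower row the endosomal receptors; Tlr1 and Tlr2 lie higher in both cKO groups, and Tlr9 is at 19.9 to 21.5 CPM in cKO IR and at 25.9 to 34.05 CPM elsewhere.

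**Figure D5:**
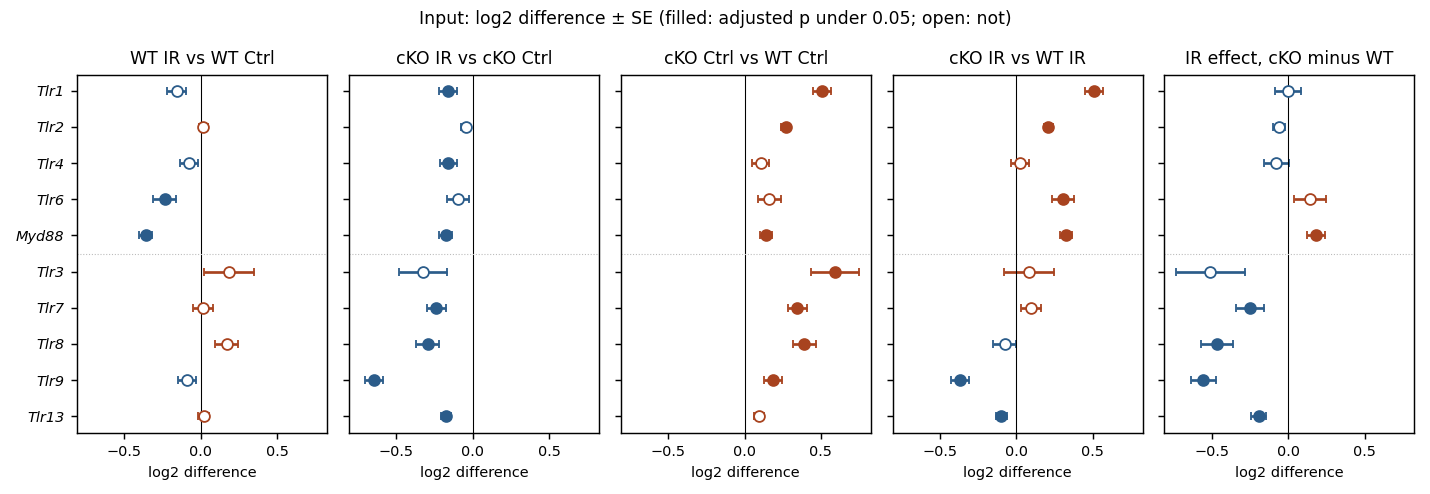
Log2 differences in Input (horizontal axis) ± SE for the 10 genes in 4 comparisons and the interaction. Filled points had an adjusted p under 0.05, red points are above 0 and blue points below; in the last panel 4 endosomal receptors are filled below 0, Myd88 is filled above 0, and Tlr1, Tlr2, Tlr4 and Tlr6 are open.

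Another 37 genes of the pathway were followed in the Inputs. In WT IR against WT Ctrl 5 were higher and 14 lower (14.7% and 17% of all genes). In cKO IR against cKO Ctrl these counts were 3 and 20 (21.8% and 23.8% of all genes), and in cKO Ctrl against WT Ctrl 11 and 2 (8.05% and 7.61%). In cKO IR against WT IR 10 were higher and 12 lower (23.9% and 23.8% of all genes), and in the interaction 3 and 9 (15% and 15.2%). In IP over Input, the change between the genotypes without irradiation was higher for 0 and lower for 13 of them (10.1% and 12.5% of all genes), and the change with irradiation, averaged over both genotypes, was higher for 22 and lower for 3 (25.3% and 23.1%). Of the 9 co-receptors and chaperones, Cd14, which passes lipopolysaccharide to Tlr4, was higher in cKO Ctrl than in WT Ctrl (0.53 ± 0.036) and in cKO IR than in WT IR (0.81 ± 0.036). Unc93b1, the chaperone of the endosomal receptors, was higher in cKO Ctrl (0.31 ± 0.030) and lower after irradiation in WT (-0.24 ± 0.030) and in cKO (-0.35 ± 0.030), and its interaction was not called.

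Among the 6 other adaptors, Wdfy1, which is described as linking Tlr3 and Tlr4 to TRIF, was lower in the cKO in both states (-2.2 ± 0.083 in Ctrl and -2.55 ± 0.086 in IR). Whether this difference comes from the loss of Ythdf2 was not tested. Sarm1, a TIR-domain protein with NADase activity, was lower in cKO IR than in WT IR with a wide error (-1.87 ± 0.64, adjusted p = 0.021). In IP over Input it was at -2.71 ± 1.04 in WT Ctrl and -2.96 ± 1.14 in cKO Ctrl. Ticam2, the bridging adaptor of Tlr4, was higher in the cKO Inputs than in WT in both states (0.33 ± 0.056 in Ctrl and 0.41 ± 0.057 in IR). Ticam1, which encodes TRIF, the adaptor that Tlr3 uses, fell after irradiation in cKO (-0.33 ± 0.047) and had an interaction of -0.28 ± 0.066 (adjusted p = 0.00306).

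Of the 11 kinases and ligases, 6 were lower and 1 higher in cKO IR against cKO Ctrl, where 45.6% of all genes were called, and 5 were lower and 1 higher in the interaction, where 30.2% were. Traf6, the ubiquitin ligase downstream of the IRAK kinases, was higher in WT IR (0.33 ± 0.056) and had an interaction of -0.42 ± 0.080. Traf3, a ligase of the interferon branch, was lower in cKO IR (-0.40 ± 0.037), with an interaction of -0.36 ± 0.052. Of the transcription factors, Irf7 went down on irradiation of WT (-0.86 ± 0.064) and was higher in the cKO in both states (1.51 ± 0.057 in Ctrl and 2.22 ± 0.062 in IR). It is itself interferon-induced and stands in that marker list too. Of the 5 brakes, Irak3, an inactive relative of the IRAK kinases, was higher in cKO Ctrl than in WT Ctrl (0.47 ± 0.032) and in cKO IR than in WT IR (0.42 ± 0.032). In the latter comparison the other called brakes were lower, the ubiquitin ligase Rnf216 at -0.32 ± 0.040 (adjusted p = 1.78e-06) and Tnfaip3, which encodes the ubiquitin-editing protein A20, at -0.08 ± 0.030 (adjusted p = 0.0325).

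The genes whose log2 levels ran most like each member over the 12 Inputs were found among 9417 genes of at least 5 CPM on average. These 12 libraries fall into 4 groups, so that Pearson's r carries the differences between the group means and is given as a description. Tlr1 was closest to Adgre1 (r = 0.990), the F4/80 macrophage marker, and Pirb (r = 0.986), and Tlr2 to Ccnd2 (r = 0.995) and Slfn5 (r = 0.987). Myd88 was closest to Twf2 and Vasp (r = 0.987 and 0.985), Tlr9 to Zbtb7a and Lrp5 (0.974 and 0.973), Tlr13 to Ogt and Zyg11b (0.956 and 0.952) and Tlr8 to Tab2 and Ptpn12 (0.956 and 0.936). Tlr7 was closest to Cd33 and Rbpj (0.956 and 0.923) and Tlr3 to Rmi1 and Tlr7 (0.957 and 0.921). The closest genes of Tlr4 (Naa25 and Dcp1b, 0.918 and 0.903) and of Tlr6 (Samd9l and Rabif, both 0.930) had lower values.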

How the data were processed

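Gene counts and m6A peaks were analysed from 24 libraries (12 Input, 12 IP, 3 per group), grouped by their labels. Per the labels and the methods of the study, read trimming (Trimmomatic 0.39) and strand-aware HISAT alignment to mm10 came first, and the authors deposited raw HTSeq counts per GENCODE gene. MACS2 peaks, made for each IP library with strands apart, were deposited by the authors with a fold enrichment (a ratio) and a −log10 q-value each. Symbols and positions came from GENCODE M21 on GRCm38; of 54446 gene identifiers 54409 matched. Genes with at least 10 counts in 3 libraries were tested in edgeR 4.0.16 (TMM, quasi-likelihood, Benjamini-Hochberg) on the 12 Inputs (16090 genes) and on all 24 libraries (17373 genes). SE is the size of the log2 difference divided by the square root of F. CPM and RPKM are TMM-scaled, with Input levels from the 12 Inputs and IP levels from all 24 libraries. Reads without a feature (2.97% to 6.8%) or with an ambiguous one (2.27% to 2.68%) stayed out. The fitting was tested on simulated data. Alternatives were RLE scaling, other count filters, DESeq2 1.42.0, a replicate block, only the libraries compared, each library left out and stricter peaks. Peaks shared by 3 libraries (at least 1 base) were intersected with bedtools 2.31.1. All members, and for each pathway list up to 3 called genes of largest change, could be named. Members and lists were chosen with earlier results of these data known.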

Additional observations from a re-analysis of the deposited data

Results flagged for a closer look

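The 5 results below were singled out because the log2 effect of irradiation on Input differed between cKO and WT by the interaction test. The effect in cKO minus that in WT was -0.25 for Tlr7, -0.47 for Tlr8, -0.56 for Tlr9, -0.19 for Tlr13 and 0.18 for Myd88.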

How the results depend on the processing

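Of 100 tests on the 10 genes (10 comparisons), 67 were called, and 56 of these were called in each alternative run. No called result changed direction. Leaving out 1 library gave 1 to 4 called members in Input for WT IR against WT Ctrl and 3 to 6 for the interaction, where the main counts were 2 and 5. For cKO IR against cKO Ctrl it gave 5 to 6, always below the main count of 7. The range was 5 to 7 for cKO Ctrl against WT Ctrl (main count 7) and for cKO IR against WT IR (main count 6). For WT IR against WT Ctrl the count was 4 without a count filter and 1 in a fit of only the 6 libraries compared, and the cause was not tested. Tlr13 in cKO IR against WT IR lost its call without a count filter (adjusted p = 0.092) and with only the 6 libraries (adjusted p = 0.114), and Tlr6 in WT IR lost its call with only the 6 (adjusted p = 0.0554). Calls were gained without a count filter for Tlr1 (adjusted p = 0.0092) and Tlr8 (0.00208) in WT IR against WT Ctrl, Tlr3 in cKO IR against cKO Ctrl (0.0302) and in the interaction (0.0266) and Tlr7 in irradiated IP over Input (0.00154). With DESeq2 Tlr1 was gained in WT IR (0.0441), and with only the 6 libraries Tlr3 in cKO IR against cKO Ctrl (0.0109) and Tlr13 in cKO Ctrl (0.00417). With peaks of at least 4-fold enrichment, the members with a consensus peak fell to 1 in each of the 4 groups. Uncalled values near 0 changed sign in part of the fits. With 1 library left out, the Input values ran from -0.10 to 0.35 for Tlr3, -0.083 to 0.10 for Tlr7 and -0.0087 to 0.057 for Tlr13 in WT IR against WT Ctrl. In cKO IR against WT IR they ran from -0.081 to 0.37 for Tlr3, -0.029 to 0.091 for Tlr4 and -0.20 to 0.031 for Tlr8. The interaction of Tlr1 ran from -0.083 to 0.080 and was 0.0070 without a count filter, and the change of IP over Input of Tlr8 in cKO Ctrl ran from -0.083 to 0.0036.

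The replicate numbers showed no pairing of the samples. The correlation of deviations between same-numbered Inputs ran from -0.31 to 0.22 and was over 0.1 in 1 of 18 pairs. Of the 12 Inputs, 2 correlated best with their own number. Between the same-numbered Input and IP of a group, by label, it ran from -0.25 to 0.092 in 12 pairs, with 0 over 0.1. The replicate block is shared by all groups and does not model pairs of Input and IP within a group. A fit with the replicate block changed none of the 100 calls and left every count as it was. It gave 7 called members in cKO Ctrl against WT Ctrl and 5 in the interaction, and only the value of Tlr1 in the interaction changed sign, to 0.0024. The fit without the irradiated IP libraries was chosen after seeing the data.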
